A study of Mus musculus with 10 samples.

Results

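The genes described here encode proteins of magnesium and calcium transport and a related channel and carrier: the channels Trpm6, Trpm7, Trpv6 and Trpm4, the magnesium transport proteins Cnnm2, Cnnm3, Cnnm4 and Slc41a1, the calcium pump Atp2b1 and the calcium-binding protein S100g. They were taken by name as 10 genes of the 33632 in the count table, and all 10 had a gene ID, had counts and passed the filter on low counts. The list was chosen by function with the CKO over flox fold changes and p-values of these same libraries already known, Trpm6 being among the genes with the smallest p-values. The group values of the 10 genes are therefore a description and support no inference about the list.

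Gene counts came from RNA sequencing of colon crypts, the gland-like pits of the colon lining with stem cells at their base, in 10 libraries. The 5 CKO libraries came from Lgr5-EGFP-IRES-CreERT2/+;Sox21fl/fl mice, in which 1 Lgr5 allele carries a green fluorescent protein and a tamoxifen-inducible Cre that can delete Sox21, a transcription factor gene, in cells that express Lgr5. The 5 flox libraries came from Sox21fl/fl mice, which carry the same floxed alleles without the Cre or the Lgr5 knock-in. Mice of both groups ate a normal diet and had a normal liver, and age, sex, tamoxifen dose and time after tamoxifen are not given in the labels, nor whether flox mice received tamoxifen. Whether each library came from its own mouse is not stated, so the p-values reflect variation among these libraries, which may be technical.

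Magnesium enters colon epithelium through TRPM6, a channel fused to a protein kinase, alone or together with its widely expressed relative TRPM7, and leaves on the blood side through CNNM4. Calcium takes a parallel route: TRPV6 admits it, calbindin-D9k (the S100g product) carries it across the cell, and the plasma membrane calcium ATPase encoded by Atp2b1 pumps it out. Trpv6 and S100g are textbook targets of the vitamin D receptor in mouse intestine. TRPM4 is opened by calcium inside the cell but passes sodium and potassium, and does not carry calcium itself.

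The 2 genes with the largest differences between the groups in either direction were Trpm6, higher in CKO, and S100g, lower in CKO, and their promoters are shown because both hold the Sox core motif, which the other windows lack. The windows run from 250 bases before to 50 bases after the annotated start, 5′ to 3′ on the strand of the gene, from RefSeq on GRCm38.p6, at chr19:18749480-18749779 (plus strand) for Trpm6 and chrX:162964550-162964849 (minus strand) for S100g. Capitals mark the Sox core motif AACAAT, here in its reverse complement ATTGTT.
Trpm6: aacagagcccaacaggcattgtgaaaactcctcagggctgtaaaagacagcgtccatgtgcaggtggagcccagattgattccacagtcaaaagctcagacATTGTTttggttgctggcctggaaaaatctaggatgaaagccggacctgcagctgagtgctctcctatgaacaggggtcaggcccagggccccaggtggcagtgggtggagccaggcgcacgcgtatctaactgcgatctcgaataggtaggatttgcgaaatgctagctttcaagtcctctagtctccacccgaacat
S100g: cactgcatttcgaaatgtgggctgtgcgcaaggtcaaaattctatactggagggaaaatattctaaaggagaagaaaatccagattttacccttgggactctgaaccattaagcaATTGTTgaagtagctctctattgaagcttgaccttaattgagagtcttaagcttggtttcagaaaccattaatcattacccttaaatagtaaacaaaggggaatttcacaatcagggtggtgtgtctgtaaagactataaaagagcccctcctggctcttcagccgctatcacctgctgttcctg
The motif began at -149 in Trpm6 and at -135 in S100g, counted from the start site. Searched on both strands, it was found in 2 of the 10 windows of the 9 members with a RefSeq entry, and in 10.7% of all 32851 promoter windows of the same length. The E-box CACGTG, a palindrome bound by clock and other bHLH factors, occurred in 2 of the 10 windows, 1 of Trpm7 with 2 matches and 1 of Atp2b1 with 1, against 7.15% of all windows. These matches describe the letters of the windows and no binding was measured. Trpm6 and S100g were picked by the group contrast, so their shared motif is a description. An action of Sox21 on either gene was not tested. Their windows were 53.0% and 41.0% G or C, and that of Trpv6 51.3%, against 63.7% to 79.3% in the remaining windows. Trpm4 had no window. The Trpm6 and S100g windows held 9 and 3 CpG dinucleotides and that of Trpv6 held 1, against 35 in the Trpm7 window.

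Library totals ran from 18926634 to 23642415 counts in CKO and from 21414122 to 23407565 in flox. Flox 1 and flox 4 stood apart: mitochondrial genes took 26.5% and 29.3% of their counts, against 4.30% to 11.8% in the 5 CKO libraries and 4.88% to 9.03% in the other 3 flox libraries. Their log2 levels, relative to the mean of each gene over the libraries, were also lower the longer the exons, with slopes of -0.25 and -0.14 per doubling of length, against -0.07 to 0.11 elsewhere. The exons of Trpm6, Trpm7, Trpm4 and Atp2b1 add up to 7.72, 11.3, 10.8 and 15.2 kb, where the median of tested genes was 4.14 kb, so fold changes are also given without flox 1 and flox 4. Sox21 itself averaged 5.34 ± 1.94 scaled CPM (SD, n = 5) over the CKO libraries and 4.04 ± 1.80 scaled CPM (SD, n = 5) over the flox libraries. Its fold change on the log2 scale, CKO over flox, was 0.38 with an SE of 0.34 (edgeR adjusted p = 0.577). Without flox 1 and flox 4 it was 0.05, with a flox mean of 5.17 scaled CPM. The deletion was thus not visible in the transcript, the deleted stretch is not stated, and CKO and flox mean here the libraries so labelled. Lgr5, the stem cell receptor whose locus drives the Cre, stood at 4.73 ± 2.16 scaled CPM in CKO and 2.99 ± 1.68 scaled CPM in flox. Its log2 fold change was 0.64 ± 0.41 (SE), and 0.30 without flox 1 and flox 4, where the flox mean was 3.87 scaled CPM. Y-linked Ddx3y had at least 320 counts and Xist at most 4 counts in each of the 10 libraries, so both groups were male by these transcripts.

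The transcript levels of the set spanned a wide range, measured per kb of annotated exon as scaled CPM, the CPM of a library after correction of its total for composition. Cnnm4, the magnesium exit protein, was at 71.9 ± 13.5 per kb in CKO and 67.0 ± 11.7 per kb in flox (SD, n = 5 each). S100g followed in CKO at 50.0 ± 23.9 per kb and led in flox at 163 ± 81.3 per kb, and Cnnm4 was the higher of the pair in 4 of 5 CKO and 1 of 5 flox libraries. That order depends on the length taken for S100g, here 0.48 kb of annotated exon: the deposited FPKM, which imply 0.161 to 0.194 kb, put S100g above Cnnm4 in all 10 libraries. Trpm4 came next at 25.9 ± 7.62 per kb in CKO and 33.3 ± 3.36 per kb in flox, below S100g and above Atp2b1 in every library. Its place depends on its length too, here 10.8 kb, where the deposited FPKM imply 0.585 to 2.01 kb. By FPKM Trpm4 was above Cnnm4 and Atp2b1 in every library. It was above S100g in CKO 1, CKO 3, CKO 4, flox 1, flox 2 and flox 4, and below S100g in the others.

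Atp2b1 and Trpm6 were close to each other in CKO, at 8.96 ± 2.63 and 8.24 ± 2.39 per kb, and Atp2b1 was the higher in 3 of 5 CKO libraries. In flox the pump, at 7.52 ± 2.05 per kb, was above Trpm6, at 3.59 ± 1.11 per kb, in 5 of 5 libraries. The closeness in CKO depends on the length taken for Atp2b1, here 15.2 kb of annotated exon. The deposited FPKM imply 5.36 to 6.61 kb and put Atp2b1 above Trpm6 in every library, with CKO means of 27.3 and 12.1. Cnnm3 and Slc41a1 could not be ordered, with Cnnm3 the higher in 3 of 5 CKO and 2 of 5 flox libraries. Trpm7 at 2.70 ± 0.525 per kb in CKO and 2.06 ± 1.04 per kb in flox, and Trpv6, at 1.67 ± 1.54 per kb in CKO and 3.42 ± 2.32 per kb in flox, likewise overlapped. Cnnm2 was lowest by its mean in both groups, at 0.826 ± 0.0709 per kb in CKO and 0.882 ± 0.242 per kb in flox.

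**Figure D1:**
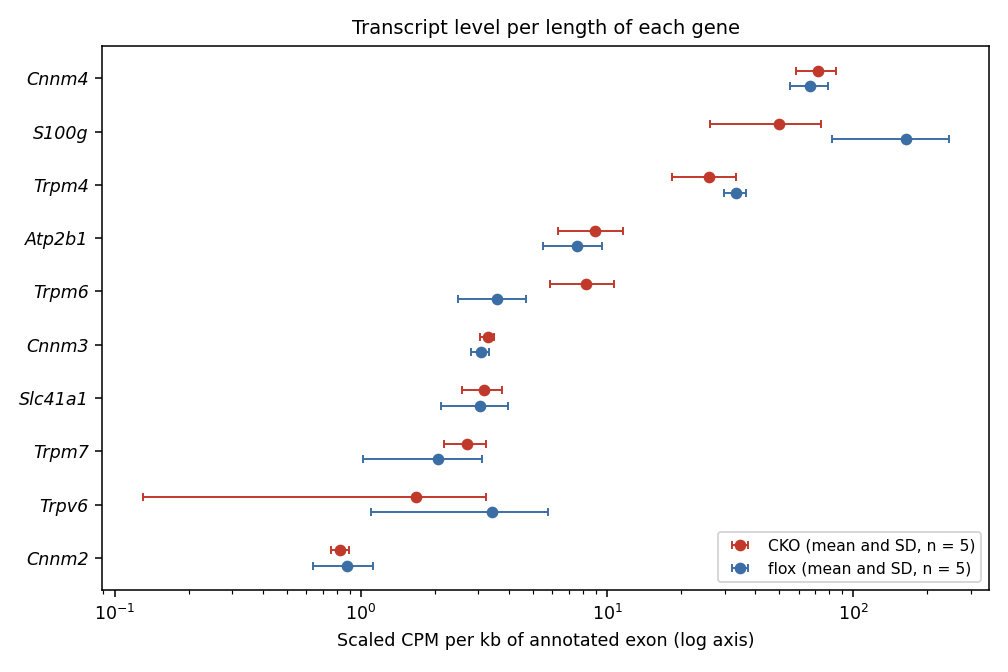
Scaled CPM per kb of annotated exon (log axis) of the 10 genes, as mean and SD over 5 CKO libraries (upper, red) and 5 flox libraries (lower, blue). Cnnm4, S100g and Trpm4 lie above the other 7 genes in both groups, and Trpm6 lies near Atp2b1 in CKO by this length but not by deposited FPKM.

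The magnesium channel gene Trpm6 (ENSMUSG00000024727) was the member whose groups were fully apart. Its level was 51.0, 44.9, 84.1, 55.2 and 82.6 scaled CPM in CKO 1 to 5, against 20.5, 23.5, 24.9, 27.3 and 42.4 scaled CPM in flox 1 to 5. Every CKO library lay above every flox library, the nearest being CKO 2 and flox 5, and CKO 3 and CKO 5 were clearly higher than the other CKO libraries. The counts behind these values were 1007 to 2431 reads in CKO and 259 to 980 reads in flox.

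The means were 63.6 ± 18.5 scaled CPM in CKO and 27.7 ± 8.57 scaled CPM in flox (SD, n = 5 each), a ratio of 2.29 with a 95% interval of 1.60 to 3.28 and a log2 fold change of 1.20 ± 0.24 (SE). Without flox 1 and flox 4 the log2 fold change was 1.08, and it was 1.06 in a fit with a term for the mitochondrial share. Leaving out each library in turn gave 1.08 to 1.40.

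Trpm7 (ENSMUSG00000027365), the relative of Trpm6 with the same channel and kinase plan, differed in mean only through the 2 libraries that stand apart. It had 37.3, 29.2, 35.1, 22.3 and 28.7 scaled CPM in CKO 1 to 5, against 8.54, 34.1, 24.1, 14.7 and 35.4 scaled CPM in flox 1 to 5. The low values were those of flox 1 and flox 4, and the other 3 flox libraries lay within the CKO range. The log2 fold change was 0.38 ± 0.33 (SE), and -0.02 without flox 1 and flox 4. The 95% interval of the ratio, 0.791 to 2.14, leaves room for a difference of either sign.

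The reads of Trpm6 per read of Trpm7 can be set side by side within each library, free of any scaling. There were 1.37, 1.54, 2.39, 2.48 and 2.88 Trpm6 reads per Trpm7 read in CKO 1 to 5, against 2.40, 0.689, 1.04, 1.86 and 1.20 in flox 1 to 5. The groups overlapped through flox 1 and flox 4, while each CKO library exceeded flox 2, flox 3 and flox 5. The ratio carries the Trpm6 difference that was known when the list was made, and is a description.

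Of the genes for proteins that export magnesium or regulate its export, none had groups apart. Cnnm4 (ENSMUSG00000037408) had 379, 422, 288, 377 and 270 scaled CPM in CKO 1 to 5, against 236, 316, 348, 328 and 390 scaled CPM in flox 1 to 5, and the groups overlapped over most of their range. Its log2 fold change was 0.10 ± 0.18 (SE) and -0.01 without flox 1 and flox 4, and the 95% interval of the ratio ran from 0.823 to 1.40. The number of Cnnm4 reads per Trpm6 read was 3.26 to 9.40 in CKO and 9.21 to 14.0 in flox, lowest in CKO 5 and CKO 3, with CKO 2 and flox 5 crossing. This ratio restates the Trpm6 difference that was known when the list was made, and is a description.

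Cnnm3 (ENSMUSG00000001138), a widely expressed member of the same family, was the steadiest of the set, at 21.0 ± 1.41 scaled CPM in CKO and 19.7 ± 1.65 scaled CPM in flox, with a 95% interval of the ratio of 0.908 to 1.25 and log2 fold changes of 0.09 and, without flox 1 and flox 4, 0.13. Cnnm2 (ENSMUSG00000064105), whose mutation causes low blood magnesium in humans, was at 4.27 ± 0.366 scaled CPM in CKO and 4.55 ± 1.25 scaled CPM in flox, with 82 to 132 reads per CKO library and 49 to 184 per flox library, and its log2 fold change was -0.10 ± 0.20 (SE) and -0.23 without flox 1 and flox 4. Slc41a1 (ENSMUSG00000013275), a sodium-dependent magnesium exporter as shown in human cells, was at 15.5 ± 2.88 scaled CPM in CKO and 15.0 ± 4.55 scaled CPM in flox. Its log2 fold change of 0.05 ± 0.22 (SE) turned to -0.21 without flox 1 and flox 4, which held its 2 lowest flox values of 11.7 and 8.99 scaled CPM.

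On the calcium route, S100g (ENSMUSG00000040808) was the member with the largest fold change. It had 25.1, 43.0, 13.9, 16.5 and 21.6 scaled CPM in CKO 1 to 5, against 88.8, 21.9, 131, 72.5 and 77.8 scaled CPM in flox 1 to 5. Flox 2 lay among the CKO values and the other 4 flox libraries lay above all of them. For flox 1 and flox 4 this depends on the measure, since by deposited FPKM they stood at 271 and 240, below CKO 2 at 304. The part of their length slope in the values of S100g, with 0.48 kb of annotated exon, was not tested. Its means were 24.0 ± 11.5 scaled CPM in CKO and 78.4 ± 39.0 scaled CPM in flox (SD, n = 5 each), a ratio of 0.307 with a 95% interval of 0.162 to 0.580. The log2 fold change was -1.70 ± 0.42 (SE), -1.67 without flox 1 and flox 4, and between -2.02 and -1.43 when each library was left out in turn.

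Trpv6 (ENSMUSG00000029868), the entry channel of the same route, varied widely within both groups. It had 2.01, 13.8, 3.49, 1.15 and 12.5 scaled CPM in CKO 1 to 5, against 8.78, 3.52, 24.9, 21.2 and 8.87 scaled CPM in flox 1 to 5. CKO 2 and CKO 5 reached the flox range and the other 3 CKO libraries lay below every flox library. Its log2 fold change was -1.02 ± 0.68 (SE) and -0.89 without flox 1 and flox 4, with a 95% interval of the ratio from 0.175 to 1.39 that includes both a lower and a higher level in CKO. The pump gene Atp2b1 (ENSMUSG00000019943) had 199, 150, 113, 120 and 98.5 scaled CPM in CKO 1 to 5, against 69.7, 128, 115, 104 and 155 scaled CPM in flox 1 to 5. Its groups overlapped, and its log2 fold change was 0.25 ± 0.23 (SE) and 0.04 without flox 1 and flox 4.

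Trpm4 (ENSMUSG00000038260), the calcium-activated monovalent channel, had the highest level per length of the 4 TRP channels among the members. It had 337, 322, 232, 351 and 158 scaled CPM in CKO 1 to 5, against 410, 342, 336, 388 and 328 scaled CPM in flox 1 to 5. CKO 3 and CKO 5, the libraries with the highest Trpm6, were the lowest for Trpm4, and CKO 1 and CKO 4 reached the flox range. Its log2 fold change was -0.36 ± 0.21 (SE) and -0.25 without flox 1 and flox 4.

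**Figure D2:**
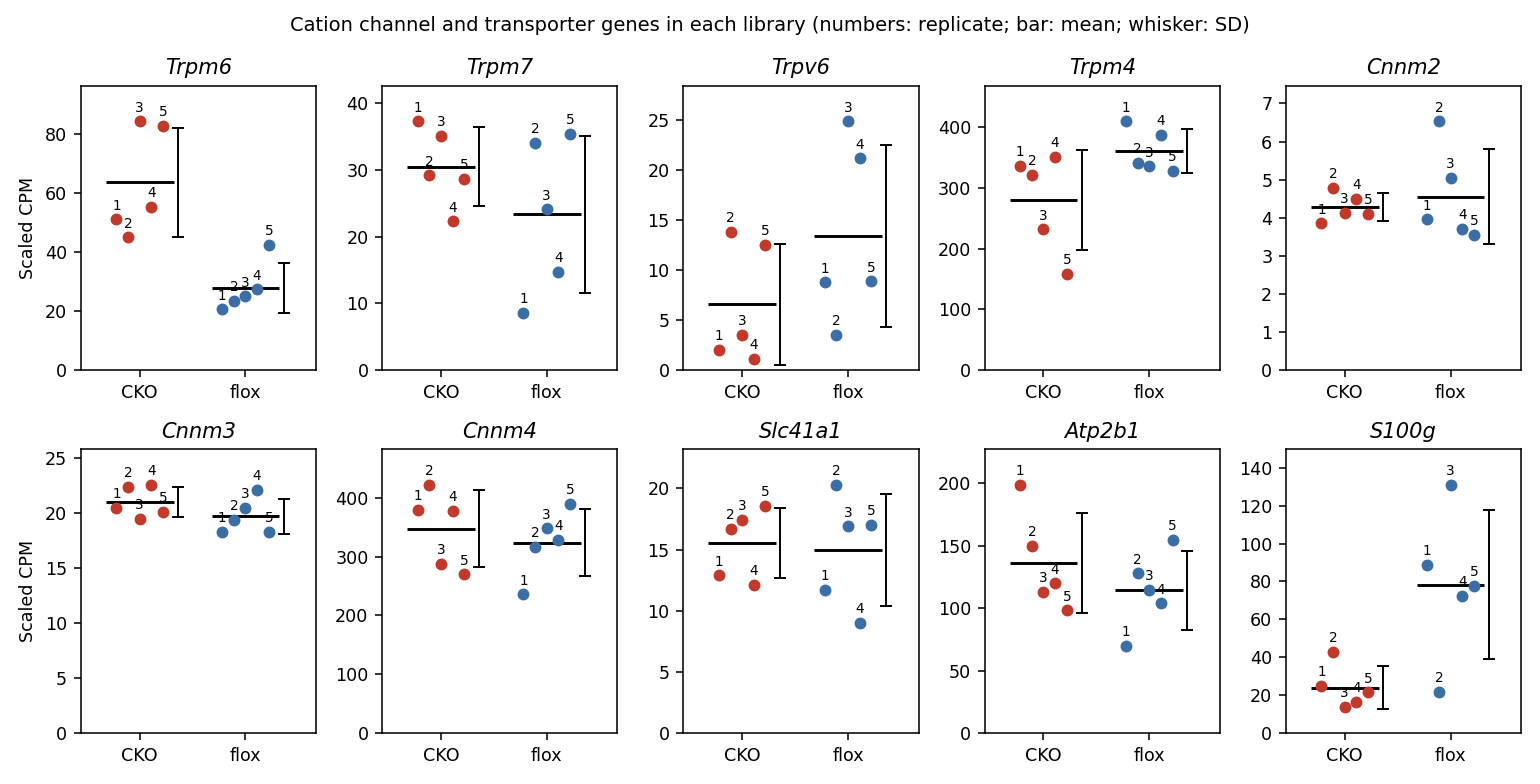
Scaled CPM of each gene in 5 CKO libraries (left, red) and 5 flox libraries (right, blue), with the replicate number beside each point, the mean as a bar and the SD as a whisker. All CKO points lie above all flox points for Trpm6 and for no other member, and 4 flox points lie above all CKO points for S100g.

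Fitted on the whole table, the quasi-likelihood test of edgeR with Benjamini-Hochberg adjustment called 0 of 14963 genes (0%) and 0 of the 10 members at 0.05. The adjusted p of the members ran from 0.174 for Trpm6 and 0.283 for S100g to 0.928 for Slc41a1. At an unadjusted p under 0.05 stood 2 members, Trpm6 and S100g, where 13.0% of all genes did, 5.05% as higher and 7.91% as lower. DESeq2 called Trpm6 as higher in CKO (adjusted p = 0.00121) and S100g as lower (adjusted p = 0.00769), where it called 1.21% of 14668 genes, 0.409% as higher and 0.804% as lower. Without flox 1 and flox 4 DESeq2 called Trpm6 alone among the members (adjusted p = 0.0244), where it called 0.454% of 15626 genes, 0.224% as higher and 0.23% as lower, and S100g had an adjusted p of 0.333. Limma voom with quality weights called Trpm6 (adjusted p = 0.0304) as higher, beside 0.294% of genes, 0.1% as higher and 0.194% as lower. Of the 10 members 1, Trpm6, had groups that did not overlap, beside 2.18% of all genes, 0.922% with CKO above flox and 1.26% with CKO below. Since the list was made with this contrast in view, these counts are given beside their background and nothing is read from them. The median log2 fold change of the 10 members was 0.07, with 6 above and 4 below 0, and that of all tested genes 0.00, with 50.1% above 0.

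**Figure D3:**
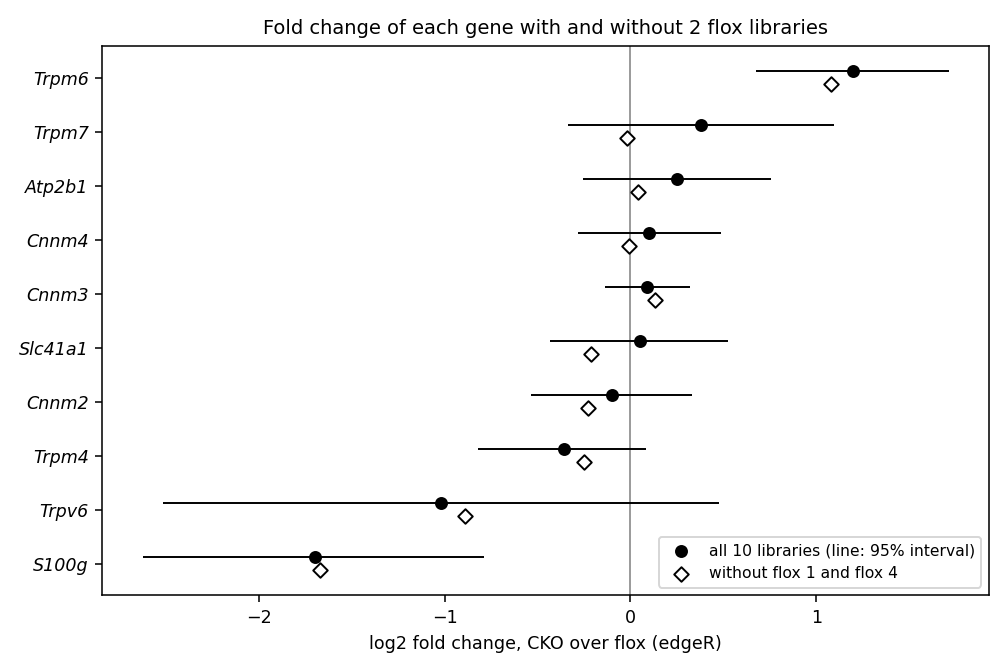
Log2 fold change, CKO over flox, of each gene by edgeR over all 10 libraries (filled circles, with 95% intervals as lines) and without flox 1 and flox 4 (open diamonds). The values of Trpm6 and S100g stay near 1.20 and -1.70, while those of Trpm7, Atp2b1 and Cnnm4 move close to 0.

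How the members varied together was examined on deviations of log2 CPM from the group means, which removes the contrast that chose the list. Among the 45 pairs over 10 libraries, 0 passed an exact permutation test within groups after Benjamini-Hochberg adjustment. Trpv6 and S100g deviated the same way, with Pearson's r = 0.67 (exact permutation p = 0.0294, adjusted p = 0.265) and Spearman's rho = 0.58 (exact permutation p = 0.0990, adjusted p = 0.680). The r was 0.68 without the 2 libraries farthest from the median of Trpv6, and 0.71 without flox 1 and flox 4. Flox 3 was highest in its group for both genes and CKO 2 in its own. Trpm6 and Trpm4 deviated in opposite ways, with r = -0.70 (exact permutation p = 0.0242, adjusted p = 0.265) and rho = -0.75 (exact permutation p = 0.0265, adjusted p = 0.298). That r was -0.83 without the 2 libraries farthest from the median of Trpm6 and -0.69 without flox 1 and flox 4. Trpm7 and Atp2b1 had the smallest p (r = 0.77, exact permutation p = 0.00722, adjusted p = 0.197; rho = 0.79, exact permutation p = 0.00403, adjusted p = 0.125), and their r was 0.47 without the 2 libraries farthest from the median of Trpm7 and 0.53 without flox 1 and flox 4. Cnnm4 and Atp2b1 had r = 0.83 (exact permutation p = 0.00875, adjusted p = 0.197) and rho = 0.77 (exact permutation p = 0.0182, adjusted p = 0.273), with r of 0.59 without the 2 farthest libraries and 0.72 without flox 1 and flox 4. Trpm4 and Slc41a1 had r = -0.59 (exact permutation p = 0.0142, adjusted p = 0.212) and rho = -0.68 (exact permutation p = 0.00556, adjusted p = 0.125), with r of -0.58 without the 2 farthest libraries and -0.74 without flox 1 and flox 4.

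**Figure D4:**
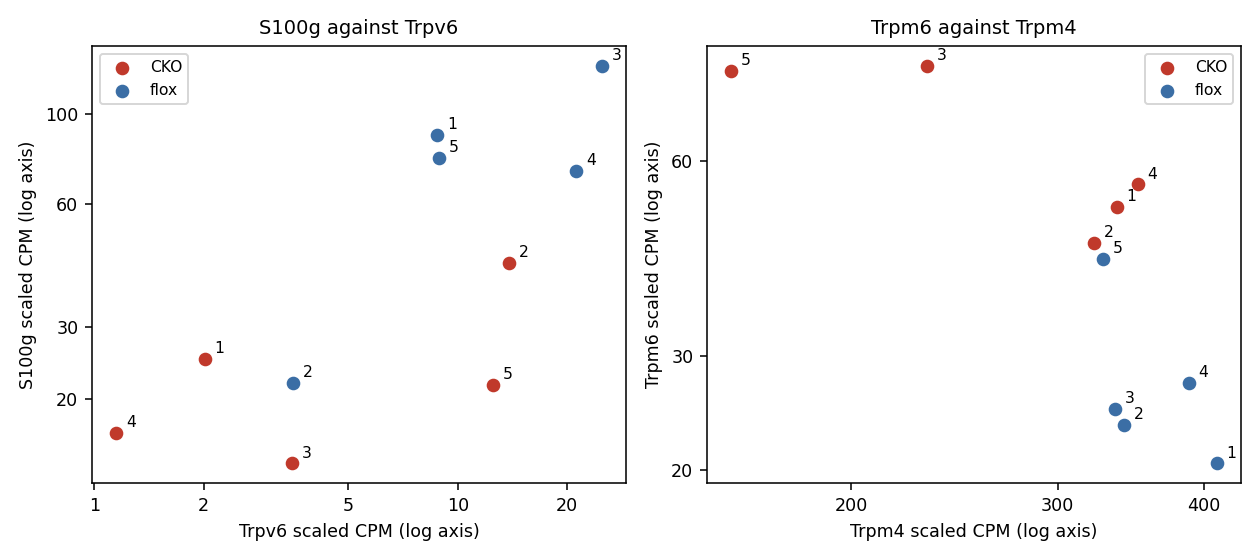
S100g against Trpv6 (left) and Trpm6 against Trpm4 (right), in scaled CPM on log axes, with 1 point per library, CKO in red and flox in blue, numbered by replicate. Libraries with more Trpv6 tend to have more S100g in both groups, and CKO 3 and CKO 5 combine the highest Trpm6 with the lowest Trpm4.

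The markers of crypt cell types give the setting of these values, as summed scaled CPM per library. Markers of colonocytes, the absorptive cells at the top of the crypt, summed to 7321 to 16425 in CKO and 9807 to 16749 in flox, with 7 of 10 genes above 0 on the log2 scale, a median log2 fold change of 0.12 and the lowest sum in CKO 5. Goblet cell markers summed to 13524 to 24305 in CKO and 24960 to 39826 in flox, so that the sums did not overlap. On the log2 scale 7 of 7 genes were below 0 (median -0.73, and -0.50 without flox 1 and flox 4). Taken singly, Muc2 alone had groups apart, beside 1.26% of all genes with CKO below. Muc2 also had the largest part of the sum, with means of 8591 scaled CPM in CKO and 14237 scaled CPM in flox. Stem cell markers, with 6 of 6 genes above 0, summed to 194 to 328 in CKO and 104 to 256 in flox, lowest in flox 1 and flox 4, and their median log2 fold change was 0.60, and 0.32 without those 2 libraries. In bulk crypts fewer cells of a type and less RNA per cell cannot be told apart, and the part of cell composition in the values of Trpm6 and S100g was not tested.

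Small intestine markers summed to 30.7 to 116 in CKO and 51.3 to 87.2 in flox, most of it from Alpi, with means of 58.4 scaled CPM in CKO and 50.0 scaled CPM in flox, and their part in the S100g values was not tested. Sums of posterior Hox genes, which mark the distal gut, were 329 in CKO 3 and 471 in CKO 5, the libraries with the highest Trpm6, against 136 to 221 in the other CKO libraries and 105 to 255 in flox, with 6 of 6 genes above 0 on the log2 scale. The flox libraries did not share this order. Flox 5, with the highest Trpm6 of its group at 42.4 scaled CPM, had a Hox sum of 118. Flox 4, with the highest Hox sum of its group at 255, had 27.3 scaled CPM of Trpm6. Fibroblast and muscle marker sums were 120, 114 and 182 in CKO 3, CKO 4 and CKO 5, against 44.9 and 48.0 in CKO 1 and CKO 2 and 17.8 to 63.5 in flox. The part of gut position or of stromal cells in the Trpm6 values was not tested.

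Among the remaining markers, leukocyte genes summed to 19.3 to 38.1 in CKO and 17.6 to 32.8 in flox, endothelial genes to 4.28 to 7.85 in CKO and 7.78 to 10.2 in flox, and enteric neuron and glia genes to 1.63 to 3.35 in CKO and 2.06 to 3.80 in flox. Most of the endothelial sum came from Vwf, with means of 3.57 scaled CPM in CKO and 6.49 scaled CPM in flox. Its groups were apart, with a log2 fold change of -0.86. Pecam1, the only other endothelial marker that was tested, went the other way at 0.16, with overlapping groups. Tuft cell markers summed to 37.6 to 85.2 in CKO and 50.5 to 127 in flox, enteroendocrine markers to 222 to 289 in CKO and 153 to 314 in flox, and proliferation markers to 331 to 399 in CKO and 329 to 424 in flox. None of the 12 lists had a marker at 0 in every library.

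Other genes of cation transport were taken from 7 lists by function, 77 entries in all, of which 62 were tested. By edgeR 0 of the 62 passed over all genes, 23 were above 0 and 39 below, with a median log2 fold change of -0.08, and 4 stood on each side at an unadjusted p under 0.05, where 5.05% of all genes were higher and 7.91% lower. DESeq2 called 1, Trpv3, beside 1.21% of genes, and without flox 1 and flox 4 it called 1, Slc41a3, beside 0.454%. The 12 that did not pass the filter on low counts included Cyp24a1, the vitamin D hydroxylase that is a direct receptor target, with at most 1 count in any library, and Casr, the calcium-sensing receptor, also with at most 1.

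Of the other magnesium carriers 7 were above 0 and 6 below. Slc41a3, a relative of Slc41a1, had 1.05, 1.16, 0.830, 0.603 and 0.920 scaled CPM in CKO 1 to 5, against 0.712, 2.38, 2.76, 1.51 and 3.20 scaled CPM in flox 1 to 5. Flox 1 lay among the CKO values and the other 4 flox libraries above them, and the log2 fold change was -1.22 ± 0.38 (SE, edgeR adjusted p = 0.354) and -1.59 without flox 1 and flox 4. Its DESeq2 adjusted p was 0.0706 over all libraries and 0.000775 without flox 1 and flox 4. Nipa1, a magnesium transporter of endosomes and the plasma membrane, had a log2 fold change of 0.54 ± 0.29 (SE) and 0.32 without flox 1 and flox 4.

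The regulators of magnesium transport had 2 above 0 and 7 below. Egfr, whose ligand EGF stimulates TRPM6 in kidney, was at 24.5 ± 1.21 scaled CPM in CKO and 18.0 ± 7.16 scaled CPM in flox, a log2 fold change of 0.44 ± 0.24 (SE) and 0.12 without flox 1 and flox 4. Ptp4a3, a phosphatase that binds CNNM proteins, had a log2 fold change of -0.28 ± 0.18 (SE) and -0.19 without flox 1 and flox 4.

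In the list of calcium entry, binding and exit 4 of 7 tested genes were above 0. Cldn12, a tight junction protein linked to calcium passage between cells, was at 48.0 ± 6.43 scaled CPM in CKO and 37.2 ± 5.77 scaled CPM in flox (log2 fold change 0.37 ± 0.14 SE, edgeR adjusted p = 0.372, and 0.23 without flox 1 and flox 4). Slc8b1, the mitochondrial sodium-calcium exchanger, was at 54.7 ± 12.4 scaled CPM in CKO and 41.4 ± 7.42 scaled CPM in flox (log2 fold change 0.40 ± 0.17 SE, edgeR adjusted p = 0.379, and 0.61 without flox 1 and flox 4). The vitamin D receptor gene Vdr was at 335 ± 55.1 scaled CPM in CKO and 335 ± 16.5 scaled CPM in flox, with a 95% interval of the ratio of 0.807 to 1.23, and its partner Rxra had a log2 fold change of -0.28 ± 0.18 (SE) and -0.07 without flox 1 and flox 4.

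Among partners of TRPV6 2 of 9 were above 0. Anxa2, an annexin that carries the channel to the membrane, had a log2 fold change of -0.42 ± 0.24 (SE), and -0.07 without flox 1 and flox 4, and Nedd4, a ubiquitin ligase, 0.30 ± 0.21 (SE) and 0.07. Of store and organelle calcium genes 6 of 17 were above 0. Orai1, the store-operated calcium channel, averaged 34.4 scaled CPM in CKO and 49.0 scaled CPM in flox (log2 fold change -0.51 ± 0.18 SE, edgeR adjusted p = 0.365, and -0.31 without flox 1 and flox 4). Itpr2, a calcium release channel of the endoplasmic reticulum, had a log2 fold change of -0.60 ± 0.24 (SE) and of -0.17 without flox 1 and flox 4.

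Among other TRP channels Trpv3, a warmth-activated calcium-permeable channel, had 6.13, 10.2, 18.1, 7.24 and 26.1 scaled CPM in CKO 1 to 5, against 5.46, 3.66, 6.68, 6.12 and 4.20 scaled CPM in flox 1 to 5. Like Trpm6 it was highest in CKO 5 and CKO 3, and CKO 1 lay within the flox range. Its log2 fold change was 1.39 ± 0.38 (SE, edgeR adjusted p = 0.325) and 1.50 without flox 1 and flox 4. Its DESeq2 adjusted p was 0.0426 over all libraries and 0.101 without flox 1 and flox 4. Pkd2, the polycystin channel, had a log2 fold change of 0.53 ± 0.22 (SE) and 0.33 without flox 1 and flox 4.

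**Figure D5:**
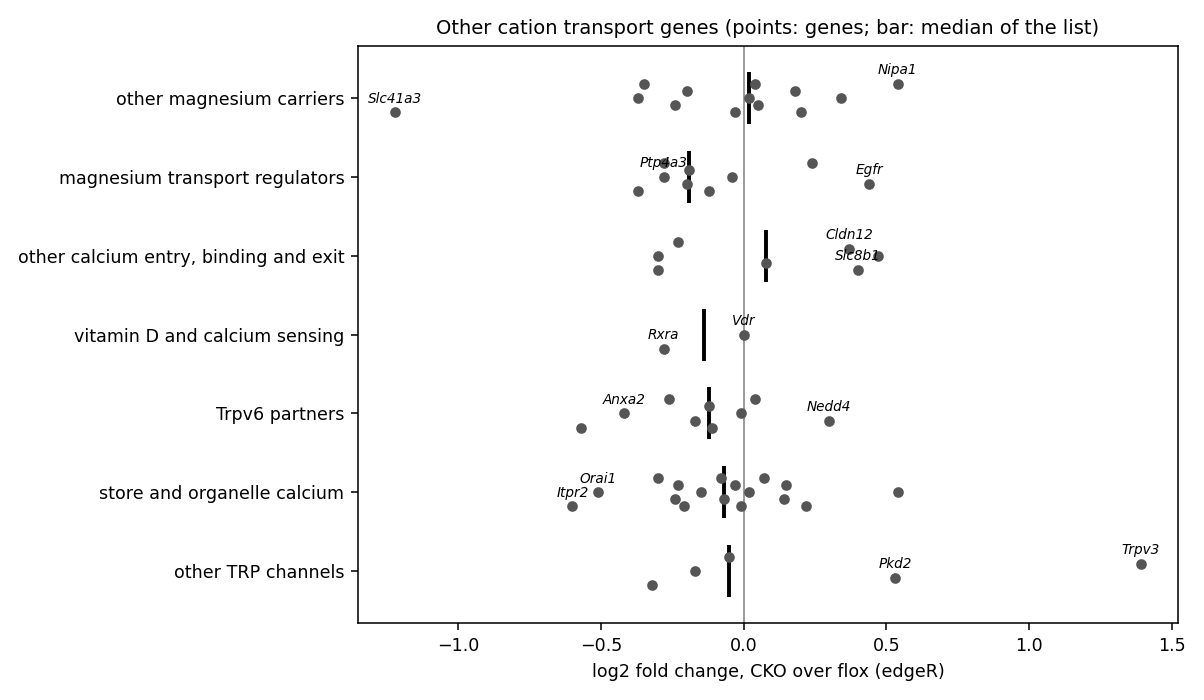
Log2 fold change, CKO over flox, by edgeR of 62 other cation transport genes in 7 lists, with 1 point per gene and the median of each list as a bar. Trpv3 and Slc41a3 lie farthest from 0, and the medians lie between -0.19 and 0.08.

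The genes whose profile over the 10 libraries was most like that of Trpm6, by the smallest root mean square difference of centred log2 CPM among 12661 protein-coding genes, were Slc5a3 (0.25), Ckmt2 (0.26), Selenop (0.27), Gcnt1 (0.29) and Ggh (0.29), where the median gene was at 0.75. Slc5a3, a sodium-dependent inositol transporter, had 26.7, 23.2, 31.8, 19.4 and 31.3 scaled CPM in CKO 1 to 5, against 6.72, 12.1, 11.1, 9.29 and 18.0 scaled CPM in flox 1 to 5. As in Trpm6, CKO 3 and CKO 5 were the highest and flox 5 was the highest of its group. Gcnt1, a glycosyltransferase of mucin-type sugars, had 12.1, 11.3, 15.5, 16.4 and 25.4 scaled CPM in CKO 1 to 5, against 7.28, 6.50, 7.35, 8.84 and 8.65 scaled CPM in flox 1 to 5. This likeness rests on the same group difference that put Trpm6 on the list and is a description.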

How the data were processed

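Total RNA of mouse colon crypts went into TruSeq mRNA libraries, per the labels' protocols. The submitters' processing notes name fastp and HISAT2. How reads were counted (build, annotation, tool, strand) is not given in the sources used here. Deposited counts are whole-number reads per Ensembl gene ID, and the deposited FPKM table holds the authors' values per gene length and library total, with lengths not stated. Symbols and exon lengths came from the GENCODE mouse annotation, release M21 (26095 of 33632 IDs had a symbol). Genes were filtered with filterByExpr and scaled by trimmed mean of M values, and counts compared with edgeR 4.0.16 (R 4.3.3; robust glmQLFit, glmQLFTest, group as the only term), with Benjamini-Hochberg adjustment over 14963 genes and a threshold of 0.05. DESeq2 1.42.0 and limma 3.58.1 were alternatives. Correlations used log2 CPM with a prior count of 2. The edgeR step was tested on simulated data, where it missed part of the genes given a known change, more of them at the smaller change. It also made some false calls. A gene that it does not call may therefore still differ. Overlapping or antisense genes may share reads, which was not measured.

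No pairing by replicate number was visible (correlation of same-numbered deviations from -0.297 to 0.396), which does not exclude one. No pair of libraries of a group differed by as little as sampling noise (lowest chi-square per degree of freedom 17.9). The members and lists were chosen with earlier results of these data known. Genes named beside the 10 members were Sox21, Lgr5, the 2 with the smallest p of each further list (none passed in edgeR), and the 5 most like Trpm6; Cyp24a1, Casr, Ddx3y and Xist were added after their values were seen. Alternatives were other scalings, tools, filters, the FPKM table, a replicate block, a mitochondrial covariate, and libraries left out.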

Additional observations from a re-analysis of the deposited data

How the results depend on the processing

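The number of genes called over all genes was 0 by edgeR, with 1939 at an unadjusted p under 0.05. It became 178 with DESeq2, 44 with limma voom with quality weights, 3 with no filter on low counts, 1 with the mitochondrial share as a covariate, 71 with DESeq2 without flox 1 and flox 4 (a combination chosen after seeing the data), and 0 to 2 when each library was left out in turn. Members called were 0 by edgeR, 2 with DESeq2, 1 with limma voom with quality weights, 1 with DESeq2 without flox 1 and flox 4, and 0 when each library was left out. Other cation transport genes called were 0 by edgeR, 1 with DESeq2, 1 with DESeq2 without flox 1 and flox 4, and 0 when each library was left out. The cause of these differences was not tested. With the replicate block edgeR called 0 genes and the log2 fold change of Trpm6 was 1.20. Same-numbered libraries correlated at -0.297, 0.282, 0.0899, 0.396 and -0.0574, and each matched a library of another number best. These values show no pairing by number, but cannot exclude a shared litter or batch, which the labels do not give. Of 240 member fold changes under 24 alternatives, 233 lay within 1 SD between replicates of the value given. That measure is wide and took in the move of Trpm7 from 0.38 to -0.05 with the mitochondrial covariate. Many alternatives also refit nearly the same libraries, so the count does not measure how firm a value is. Trpm6, Trpv6, Trpm4, Cnnm3, Atp2b1 and S100g kept their sign in all 24, Trpm7, Cnnm2 and Cnnm4 were at 0 or the other sign in 3 each and Slc41a1 in 8. On log2(FPKM + 1) the median of all genes was 0.30, and beside it Trpm6 was at 1.38, S100g at -1.05 and Cnnm4 at 0.52.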

Other observations

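The deposited FPKM of several members did not rest on 1 gene length. The length that counts, library total and FPKM imply for Trpm4 was 0.585 to 2.01 kb over the 10 libraries, beside 10.8 kb of annotated exon, and for Cnnm2 1.38 to 3.36 kb, beside 5.17 kb. The highest implied length was 1.52 times the lowest for Trpm7, 1.39 times for Cnnm3, 1.23 times for Atp2b1 and 1.20 times for S100g. For Trpm6 it was 6.14 to 6.20 kb and for Cnnm4 4.22 to 4.26 kb. Trpm4 therefore ranked 1 of the 10 members by mean FPKM in CKO (234 ± 96.2) and 3 by scaled CPM per kb. Its FPKM was 217, 202, 219, 395 and 136 in CKO 1 to 5, against 410, 205, 292, 339 and 198 in flox 1 to 5, an order of libraries that differs from that of its scaled CPM.

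The number of S100g reads per Trpv6 read ran from 1.74 to 14.3 in CKO and from 3.41 to 10.1 in flox, so the 2 genes of the calcium route were not in a fixed proportion. S100g reads per Atp2b1 read were 0.126, 0.286, 0.122, 0.137 and 0.219 in CKO 1 to 5, against 1.27, 0.170, 1.14, 0.696 and 0.504 in flox 1 to 5, where only flox 2 lay within the CKO range. This ratio restates the S100g difference that was known when the list was made, and is a description. Its genes have 0.48 and 15.2 kb of annotated exon. The part of the length slopes of flox 1 and flox 4 in the ratio was not tested.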
